A study of Rattus norvegicus with 6 samples.

Results

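The VEGF and angiopoietin systems are represented here by 10 genes measured in the rat left atrium: the ligands Vegfa, Vegfb, Vegfc and Pgf, their receptors Kdr, Flt1 and Flt4, the angiopoietins Angpt1 and Angpt2, and the angiopoietin receptor Tek. A gene was taken from the array's probe sets that carry its symbol alone, and each of the 10 had 1 such probe set, among 11237 genes tested. The tissue came from adult male Sprague-Dawley rats with an electrode on the right atrium. In the RAP group (rapid atrial pacing) the atria of 3 rats were driven at a cycle length of 70 ms for 48 hours, and in the control group those of 3 rats were driven at 140 ms for the same time. All rats drank atenolol, a beta blocker that slows conduction to the ventricles, so that the ventricular rate was alike in both groups, and all received heparin before the hearts were rinsed and the atria removed. Each RAP rat had a control rat that was operated on and paced beside it, and these are called pairs 1 to 3. The values are log2 signals, 1 array per rat, in which a difference of 1 is a doubling.

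VEGF-A binds the receptor tyrosine kinases Flt1 (VEGFR1) and Kdr (VEGFR2) on blood vessel endothelium, and Kdr carries the main signal for endothelial growth, survival and permeability, while Flt1 holds the ligand tightly and also exists as a soluble decoy. Among the VEGF receptor tyrosine kinases, VEGF-B and placental growth factor (Pgf) bind Flt1 alone. VEGF-C signals mainly through Flt4 (VEGFR3), the receptor of lymphatic endothelium. Angiopoietin 1, made by mural and stromal cells, keeps vessels quiet through Tek (Tie2), and angiopoietin 2, released by endothelial cells themselves, mostly opposes it. In the heart, cardiomyocytes are a main source of VEGF-A and VEGF-B.

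Promoter sequence was at hand for 7 of the 10 genes in a RefSeq table of build GRCr8, without Angpt1, Angpt2 and Tek. Those of Vegfc, Flt4 and Kdr are shown because Vegfc and Flt4, a ligand and its receptor, had the lowest p of the 10 genes, both with a negative change, while Kdr, the related receptor of blood vessels, had a positive one. Each sequence ends at the base before the annotated gene and is written 5′ to 3′ on the gene's own strand, with GC boxes (GGGCGG on either strand) in capitals.
Vegfc, chr16:44560888-44561137, minus strand: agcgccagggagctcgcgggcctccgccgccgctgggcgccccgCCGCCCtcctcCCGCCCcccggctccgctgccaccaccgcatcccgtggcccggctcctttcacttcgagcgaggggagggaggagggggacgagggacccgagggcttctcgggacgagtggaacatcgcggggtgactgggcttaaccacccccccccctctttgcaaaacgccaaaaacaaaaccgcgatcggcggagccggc
Flt4, chr10:34414584-34414833, plus strand: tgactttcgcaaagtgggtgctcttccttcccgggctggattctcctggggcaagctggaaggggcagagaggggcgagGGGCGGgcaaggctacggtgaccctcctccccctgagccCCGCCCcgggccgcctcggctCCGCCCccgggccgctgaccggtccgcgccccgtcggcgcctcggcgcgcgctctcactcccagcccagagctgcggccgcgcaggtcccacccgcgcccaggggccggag
Kdr, chr14:32571813-32572030, plus strand: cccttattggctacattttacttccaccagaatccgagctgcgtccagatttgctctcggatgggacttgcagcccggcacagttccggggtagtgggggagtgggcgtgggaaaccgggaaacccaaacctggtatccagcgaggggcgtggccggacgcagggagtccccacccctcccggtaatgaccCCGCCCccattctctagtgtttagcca
Vegfc holds 2 GC boxes, Flt4 holds 3 and Kdr holds 1. In windows of 250 bases before the start that the table gives, all 7 genes hold at least 1 GC box. The share is 30.5% of 33469 such windows in the rat. ACGTG on either strand, a form of the core of a hypoxia response element, is in 0 of the 7, against 16.6% of all windows. The form GCGTG was not counted, and the Kdr sequence above holds it. Of these windows that of Flt1 lies wholly inside the annotated gene, and those of Vegfb and Kdr hold 102 and 32 bases of it, so the sequence of Kdr was shortened to 218 bases. These matches describe letters in short windows and are not sites of binding.

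Of the 10 genes, 0 passed the thresholds that the study's methods set (fold above 1.3, unadjusted p under 0.05) by limma with the pair as a block. Of all genes tested 6.39% passed, 2.94% as higher in RAP and 3.45% as lower. Genes are called risen or fallen below only where they passed. The smallest unadjusted p was 0.0775, for Vegfc, and the adjusted p of the 10 genes lay between 0.699 and 0.962, while 0 of all 11237 genes had an adjusted p under 0.05 and 774 (6.89%) had an unadjusted p under 0.05. Changes are given as log2 RAP minus control with limma's moderated standard error (SE). Of the 10 genes 7 had a positive change, as did 5480 of all 11237 genes. The median change was 0.09, beside a median of -0.01 over all genes. The 95% interval of each of the 10 changes included 0, and the intervals reached from -1.12 at the lowest to 1.04 at the highest. A difference of 1 on the log2 scale lay inside the intervals of Vegfb, Pgf and Flt4 and outside those of the other 7 genes. RAP was higher in 5 of the 10 genes in pair 1, in 6 in pair 2 and in 3 in pair 3.

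**Figure D1:**
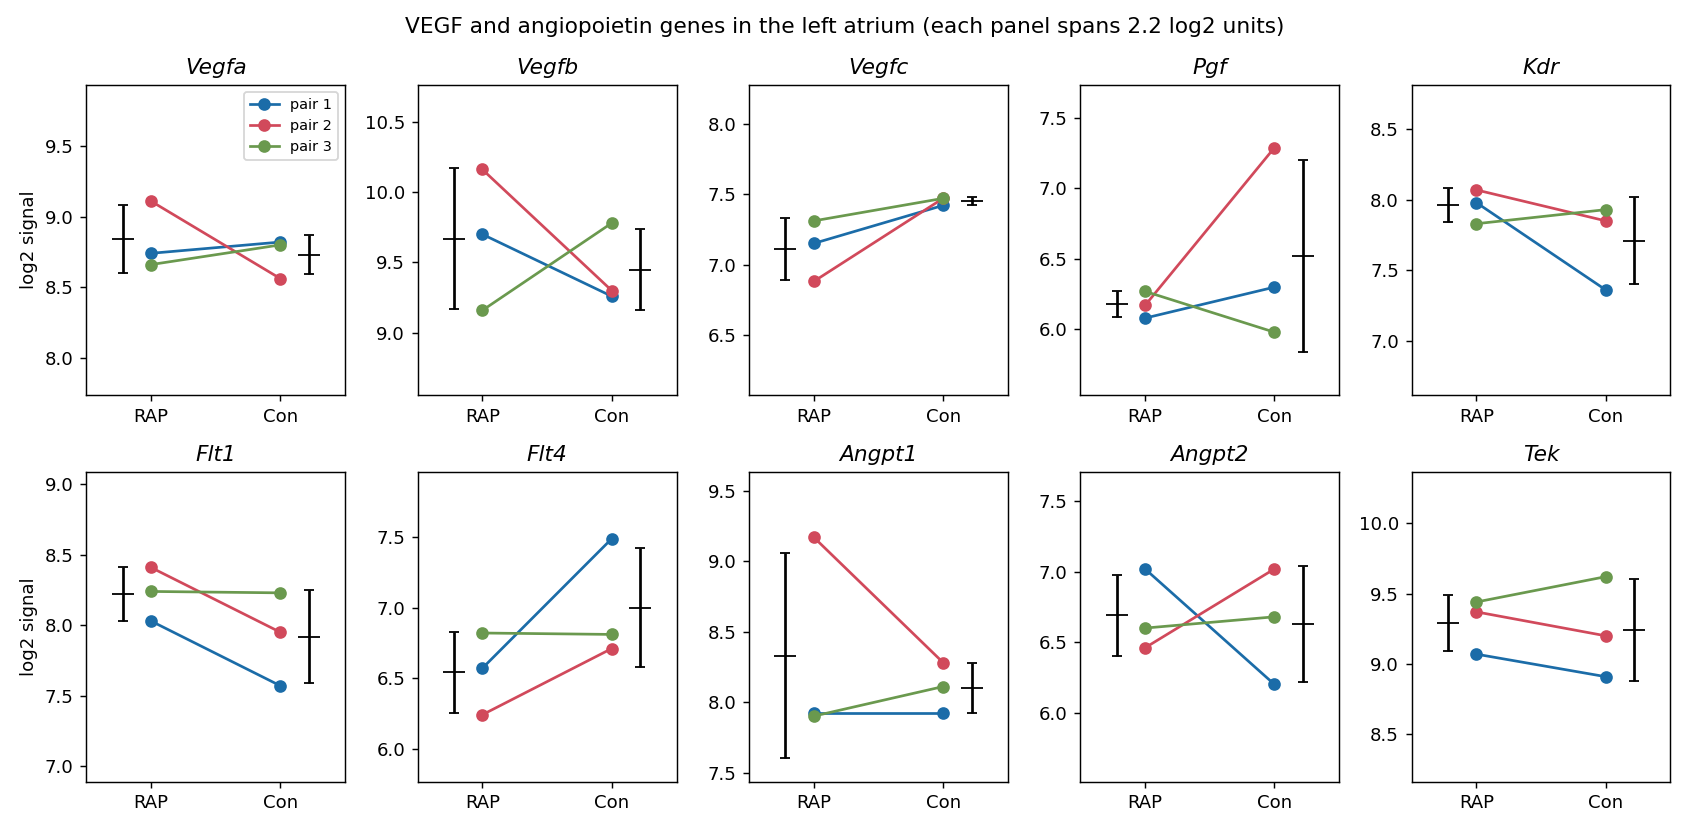
Log2 signal of the 10 genes on the 6 arrays, RAP left and control right in each panel, with lines between the 2 rats of each pair and black bars for the group mean and SD (n = 3). Vegfc is the gene whose 3 RAP arrays (6.88 to 7.31) all lie under the 3 control arrays (7.42 to 7.47), while single arrays stand apart in Pgf (control 2), Angpt1 (RAP 2) and Flt4 (control 1).

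Among the VEGF ligands of blood vessels, Vegfa had log2 signals of 8.74, 9.11 and 8.66 in RAP 1, 2 and 3, against 8.82, 8.56 and 8.80 in controls 1, 2 and 3. The groups overlapped, and RAP 2 was the highest and control 2 the lowest array. The change was 0.11 (SE 0.19, 95% interval -0.38 to 0.61), and it came from pair 2 (0.55), since pairs 1 and 3 gave -0.08 and -0.13. Without replicate 2 the change was -0.11.

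Vegfb, the ligand of Flt1 that is abundant in heart muscle, had log2 signals of 9.70, 10.16 and 9.16 in RAP 1, 2 and 3, against 9.26, 9.30 and 9.78 in controls 1, 2 and 3. The pairs disagreed, with RAP higher by 0.44 and 0.85 in pairs 1 and 2 and a difference of -0.62 in pair 3, where RAP 3 was the lowest of all 6 arrays. The change over the 3 pairs was 0.23 (SE 0.31). Without replicate 3 it was 0.65 (SE 0.17) and Vegfb passed the thresholds, in a setting in which 22.1% of all genes did.

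Cardiomyocyte markers were also highest in RAP 2. Over 11 of 12 listed genes, all of them above a log2 signal of 5 on every array, their mean log2 level was 12.31, 12.61 and 12.24 in RAP 1, 2 and 3, against 11.93, 11.87 and 12.24 in controls 1, 2 and 3, and 3 of the 11 rose and 0 fell. The count of 3 was 0 without replicate 1 or 2 and 7 without replicate 3. Of all genes 1.46%, 3.36% and 22.1% passed without replicates 1, 2 and 3. By the methods' paired t-test 0 of these markers passed, as did 2.08% of all genes. The part of cardiomyocytes in the values of the ligands was not tested.

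Pgf, the placental growth factor, had log2 signals of 6.08, 6.17 and 6.27 in RAP 1, 2 and 3, against 6.30, 7.29 and 5.98 in controls 1, 2 and 3. Control 2 alone stood apart, and the other 5 arrays lay within a narrow band. The change was -0.35 (SE 0.30), with -0.22, -1.12 and 0.29 in pairs 1, 2 and 3, and 0.04 without replicate 2. Pgf had the widest range of the 10 genes (1.31 on the log2 scale). The genes with the most similar pattern over the 6 arrays, by the root mean square difference of their deviations from their own mean, were Cd4 (0.04), a T cell co-receptor that rat macrophages also carry, the cell cycle inhibitor Cdkn2a (0.06) and the interleukin receptor Il21r (0.08). Cdkn2a lay near the signal level of 5, between 4.79 and 5.10, on every array but control 2 (6.18). Macrophage markers (15 of 15 measured, 14 above a log2 signal of 5 on every array) were also highest in control 2, with mean log2 levels between 7.87 and 8.72 in RAP atria, against 8.71, 9.66 and 8.05 in controls 1, 2 and 3, and 0 of them rose and 1 fell. Their part in the Pgf value was not tested.

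Vegfc, the main ligand of lymphatic growth, was the only one of the 10 genes whose groups did not overlap, a pattern shown by 15.4% of all genes tested. Its log2 signals were 7.15, 6.88 and 7.31 in RAP 1, 2 and 3, against 7.42, 7.47 and 7.47 in controls 1, 2 and 3. The 3 controls lay within a spread of 0.03 (SD) around a mean of 7.45, and the RAP atria had a mean of 7.11 (SD 0.22, n = 3 each). The change was -0.34 (SE 0.15, 95% interval -0.74 to 0.06), with -0.27, -0.60 and -0.16 in pairs 1, 2 and 3. Vegfc missed the thresholds on the p (0.0775 by limma) as well as on the fold. Without the pair as a block the p by limma was 0.0457, with the fold still under 1.3, and with RAP replicate 3 also left out the change was -0.44 and passed, as 10.2% of all genes did in that setting.

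The receptors of blood vessel endothelium had positive changes in pairs 1 and 2 that did not pass the thresholds. Kdr, the main signaling receptor of VEGF-A, had log2 signals of 7.98, 8.07 and 7.83 in RAP 1, 2 and 3, against 7.36, 7.85 and 7.93 in controls 1, 2 and 3. RAP 3 lay between control 2 and control 1, so the groups overlapped, and control 1 was well under the other 5 arrays. The change was 0.25 (SE 0.18, 95% interval -0.24 to 0.73), with 0.62, 0.22 and -0.10 in pairs 1, 2 and 3. With array weights, which lean on pair 1, it was 0.54 (SE 0.12) and Kdr passed, as 23.6% of all genes did.

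Flt1, which binds VEGF-A, VEGF-B and Pgf, had log2 signals of 8.03, 8.41 and 8.24 in RAP 1, 2 and 3, against 7.57, 7.95 and 8.23 in controls 1, 2 and 3. It was 1 of 2 members of the group, with Vegfc, whose sign was the same in all 3 pairs, which holds for 28.4% of all genes, but in pair 3 the difference was 0.01. The change was 0.31 (SE 0.16, 95% interval -0.11 to 0.72), with 0.45 and 0.46 in pairs 1 and 2. Flt1 passed the thresholds without replicate 3 (0.45, SE 0.14) and, with no block, without control replicate 3 (0.46), where 15.4% of all genes passed. The change of Flt1 minus that of Kdr was -0.17, 0.24 and 0.11 in pairs 1, 2 and 3 (mean 0.06, SD 0.21).

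**Figure D2:**
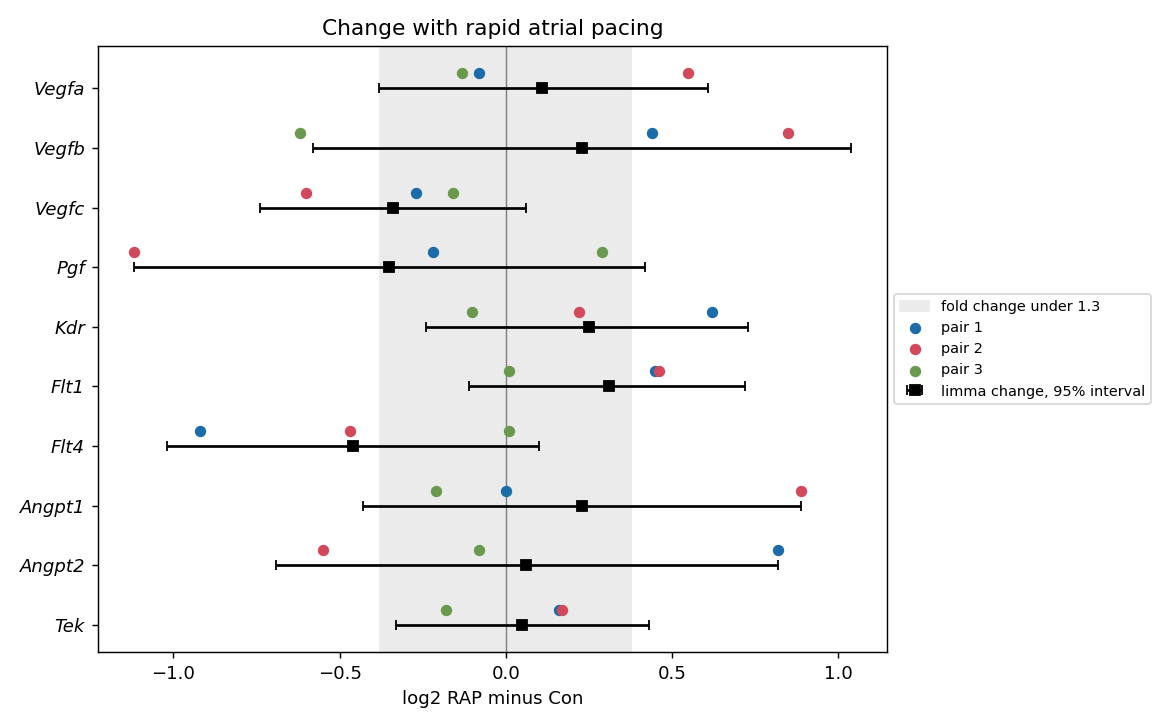
Log2 RAP minus control for the 10 genes, with limma's change and its 95% interval as black squares and bars and the single pairs as coloured points above them (grey band, fold under 1.3). Each interval crosses 0, and the pair 3 points lie between -0.62 (Vegfb) and 0.29 (Pgf).

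Flt4, the receptor of VEGF-C on lymphatic vessels, had log2 signals of 6.57, 6.24 and 6.82 in RAP 1, 2 and 3, against 7.49, 6.71 and 6.81 in controls 1, 2 and 3. Control 1 was far above the other 5 arrays and RAP 2 was the lowest, but RAP 3 and control 3 were equal to within 0.01. The change, -0.46 (SE 0.21, 95% interval -1.02 to 0.10), was the largest of the 10 genes and the only one beyond a fold of 1.3, which 16.8% of all genes exceeded. It was -0.92 and -0.47 in pairs 1 and 2. Flt4 passed the thresholds without replicate 3 (-0.70, SE 0.18) and with array weights (-0.82, SE 0.13). Set against Kdr on the same arrays, the differences of Flt4 were -1.54, -0.69 and 0.11 in pairs 1, 2 and 3. Their mean was -0.71, smaller than their SD of 0.83.

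Other markers of lymphatic endothelium were measured for 5 of 7 listed genes, of which 0 rose and 2 fell. Pdpn, podoplanin, which mesothelium also makes, had log2 signals of 10.72, 10.35 and 10.57 in RAP 1, 2 and 3, against 11.55, 10.89 and 10.78 in controls 1, 2 and 3, a change of -0.53 (SE 0.17), and the groups did not overlap. Ccl21, the chemokine of lymphatic vessels, had a change of -0.87 (SE 0.33), with -1.79, -0.20 and -0.61 in pairs 1, 2 and 3. The unadjusted p of Ccl21 by limma rounded to 0.05. Neither gene passed without the pair as a block, by the methods' paired t-test or without replicate 1. The count of 2 was 1 with a variance trend, under each of the other scalings and with the mean of all probe sets. Reln, a further marker near the signal level of 5, differed by 0.02 (SE 0.23). Prox1, the transcription factor that defines lymphatic identity and that heart muscle also makes, differed by 0.18 (SE 0.45), and the hyaluronan receptor Lyve1, shared with macrophages, by -0.29 (SE 0.42). Markers of mesothelium, another source of Pdpn, were measured for 8 of 10 listed genes, of which 0 rose and 3 fell. They had mean log2 levels between 8.78 and 9.01 in RAP atria, against 9.17 to 10.12 in control atria, where control 1 was the highest array as it was for Flt4 and Pdpn. The part of mesothelium in these values was not tested.

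In the angiopoietin system, Angpt1 had log2 signals of 7.92, 9.17 and 7.90 in RAP 1, 2 and 3, against 7.92, 8.28 and 8.11 in controls 1, 2 and 3. RAP 2 stood apart from the other 5 arrays. The change was 0.23 (SE 0.25), with 0.00, 0.89 and -0.21 in pairs 1, 2 and 3, and -0.11 without replicate 2. The genes with the most similar pattern over the 6 arrays were Mlycd (root mean square difference 0.14), a decarboxylase that controls fatty acid oxidation, Efcab2 and Or2ak5 (both 0.16).

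Angpt2 had log2 signals of 7.02, 6.46 and 6.60 in RAP 1, 2 and 3, against 6.20, 7.02 and 6.68 in controls 1, 2 and 3. RAP 1 and control 2 were the highest arrays and control 1 the lowest, and the groups overlapped. The change was 0.06 (SE 0.29, 95% interval -0.69 to 0.82) and the pairs went opposite ways, with 0.82, -0.55 and -0.08. With array weights it was 0.62 (SE 0.21) and passed. The change of Angpt2 minus that of Angpt1 was 0.82, -1.45 and 0.14 in pairs 1, 2 and 3 (mean -0.16, SD 1.16), so the pairs gave no common direction.

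Tek, the receptor of both angiopoietins, had log2 signals of 9.07, 9.37 and 9.44 in RAP 1, 2 and 3, against 8.91, 9.20 and 9.62 in controls 1, 2 and 3. Control 1 was the lowest array and control 3 the highest, and the 3 RAP arrays lay between them. The change was 0.05 (SE 0.15), with 0.16, 0.17 and -0.18 in pairs 1, 2 and 3, and its 95% interval of -0.33 to 0.43 was the narrowest of the 10 genes.

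Kdr, Flt1, Tek and Angpt2 were each lowest in control 1, as were 16.9% of all genes. Endothelial markers followed the same array. Over 15 of 18 listed genes, all above a log2 signal of 5 on every array, their mean log2 level was 7.58, 7.60 and 7.74 in RAP 1, 2 and 3, against 7.30, 7.87 and 7.85 in controls 1, 2 and 3, and 12 of the 15 were lowest in control 1. Of these markers 0 rose and 0 fell, with a median change of -0.05. Pecam1, the junction protein of endothelium, had log2 signals of 9.76, 9.44 and 9.91 in RAP atria, against 9.45, 9.77 and 10.07 in control atria. In whole tissue, fewer endothelial cells and less RNA per cell cannot be told apart, and the part of either in the low signals of control 1 was not tested.

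**Figure D3:**
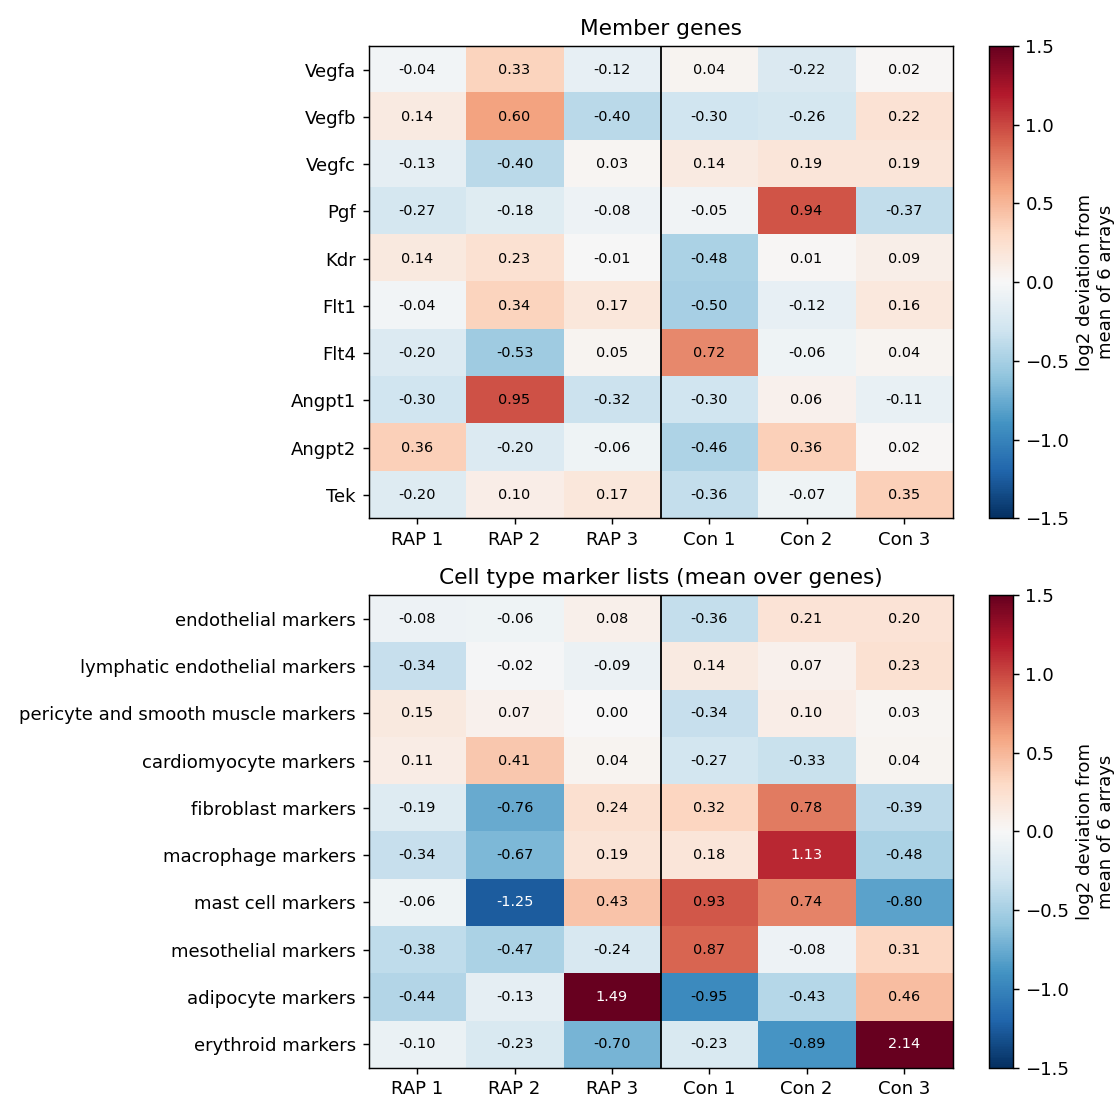
Log2 deviation from the mean of the 6 arrays (blue low, red high, colours end at 1.5 either way) for the 10 genes above and for the mean over each list of cell type markers below, with the RAP arrays left of the control arrays. RAP 2 holds the highest signal of Vegfa, Vegfb, Kdr, Flt1 and Angpt1, and control 2, the highest array of Pgf, is also the highest in macrophage markers (1.13).

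RAP 2 held the highest signal of 5 of the 10 genes (Vegfa, Vegfb, Kdr, Flt1 and Angpt1), while it was the highest array for 21.8% of all genes. It held the lowest signal of Vegfc and Flt4, and was the lowest array for 2832 of all 11237 genes. The 10 genes varied over the 6 arrays by a median range of 0.82 on the log2 scale, beside 0.56 over all genes. Besides the lists above, markers of fibroblasts (12 genes) lay between 9.04 and 10.05 in RAP atria and 9.42 and 10.58 in control atria, with RAP 2 the lowest and control 2 the highest, and of these genes 0 rose and 1 fell. Erythroid markers (6 of 9 genes) stood at 10.40 in control 3 and between 7.37 and 8.15 on the other arrays, and 0 of them rose or fell. Of 11 measured adipocyte markers (12 listed) 7 rose and 0 fell, with median changes of 0.49, 0.41 and 0.95 in pairs 1, 2 and 3, though 0 of the 11 passed without the pair as a block. Their mean log2 level was 6.33, 6.64 and 8.26 in RAP 1, 2 and 3, against 5.82, 6.33 and 7.22 in controls 1, 2 and 3. Of 9 measured mast cell markers 0 rose and 0 fell, with mean log2 levels between 4.89 and 6.57 in RAP atria and between 5.33 and 7.06 in control atria. Only 3 of these 9 exceeded 5 on every array. The part of these cell types in the values of the 10 genes was not tested. The arrays had median log2 signals between 5.82 and 5.85. The atrial genes Nppa, the precursor of atrial natriuretic peptide, and Myl7, the atrial myosin light chain, had log2 signals of at least 13.40 on every array.

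The partners of these ligands and receptors were drawn from a list of 16 genes, of which 11 were measured. Of these 0 rose and 1 fell, with a median change of -0.12. Itgb3, the integrin β3 subunit that pairs with Kdr on endothelium and is also abundant on platelets and macrophages, fell by 1.26 on the log2 scale (SE 0.39). Its log2 signals were 7.72, 7.41 and 7.71 in RAP 1, 2 and 3, against 9.55, 9.25 and 7.85 in controls 1, 2 and 3. The groups did not overlap, but control 3 lay 0.14 above its RAP partner where pairs 1 and 2 each differed by 1.83.

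The co-receptor Nrp1, which binds VEGF-A beside Kdr, had log2 signals of 9.40, 9.55 and 9.60 in RAP 1, 2 and 3, against 9.09, 9.33 and 9.41 in controls 1, 2 and 3. RAP was higher in each pair, by 0.30, 0.21 and 0.19, and the change was 0.23 (SE 0.13, unadjusted p = 0.129 by limma), under the fold threshold. Nrp2, the co-receptor of VEGF-C, had a change of -0.46 (SE 0.32) that came from pair 2 (-1.37, with -0.08 and 0.08 in pairs 1 and 3). Tie1, the partner receptor of Tek, differed by -0.22 (SE 0.20), Vegfd, the second lymphatic ligand, by -0.12 (SE 0.24), and Angpt4 by 0.04 (SE 0.28). Ptprb, the phosphatase that restrains Tek, had no probe set under its symbol.

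Of 32 listed genes of signaling below the VEGF receptors 26 were measured, of which 0 rose and 1 fell, with a median change of -0.04. The kinase Src had log2 signals of 6.99, 6.78 and 7.13 in RAP 1, 2 and 3, against 7.78, 7.66 and 7.25 in controls 1, 2 and 3, a change of -0.60 (SE 0.20) with no overlap. The endothelial nitric oxide synthase Nos3, a main effector of Kdr, differed by 0.01 (SE 0.17), the phospholipase Plcg1 by 0.04 (SE 0.14) and the kinase Akt1 by 0.03 (SE 0.14). Of 22 genes that VEGF and Notch control in endothelium 0 rose and 1 fell, the early growth response factor Egr1 (-0.70, SE 0.26, with -0.83, -0.03 and -1.25 in pairs 1, 2 and 3), which many stimuli induce in other cells too. The tip cell genes Esm1 (0.39, SE 0.26), Apln (0.34, SE 0.21) and Dll4 (0.11, SE 0.15) did not pass.

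Hypoxia is the best known inducer of Vegfa, and genes tied to it went both ways. The list joins genes that respond to hypoxia with genes that sense it, among them Hif1a, Epas1 and Vhl. Of 29 listed genes 28 were measured, of which 1 rose and 1 fell, with a median change of -0.05. The glycolytic kinase Pgk1 had log2 signals of 10.55, 10.65 and 11.11 in RAP 1, 2 and 3, against 10.21, 10.32 and 10.24 in controls 1, 2 and 3, a change of 0.52 (SE 0.17). The glucose transporter Slc2a1 had 6.99, 6.62 and 6.97 in RAP atria, against 7.76, 7.82 and 7.15 in control atria, a change of -0.72 (SE 0.23). Neither overlapped between the groups. Hif1a, the subunit of the hypoxia-inducible transcription factor that oxygen destabilizes, had a change of -0.92 (SE 0.41) that did not pass, with 9.29, 9.11 and 9.40 in RAP atria, against 10.81, 10.63 and 9.10 in control atria, and Epas1, its endothelial relative, differed by 0.05 (SE 0.15). The counts of genes past the thresholds in the lists of partners, signaling, VEGF and Notch responses and hypoxia were 2, 6, 6 and 9 without replicate 3, and 0 in each list without replicate 1. Of all genes 22.1% passed without replicate 3 and 1.46% without replicate 1, so the counts moved with those of all genes. Egr1 did not pass after a further quantile normalization.

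Pericytes and smooth muscle cells, wall cells that release angiopoietin 1, were represented by 14 genes, of which 1 rose and 0 fell. Cspg4, the NG2 proteoglycan of pericytes, had log2 signals of 6.70, 6.72 and 6.64 in RAP 1, 2 and 3, against 6.07, 6.39 and 6.26 in controls 1, 2 and 3, a change of 0.45 (SE 0.14) with no overlap, and did not pass without replicate 1. The mean log2 level of the list lay between 7.68 and 7.83 in RAP atria and between 7.34 and 7.78 in control atria, with control 1 again the lowest. The adjusted p by limma over all genes was 0.699 for Itgb3, Src, Egr1, Pgk1, Slc2a1, Pdpn, Ccl21 and Cspg4 alike.

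**Figure D4:**
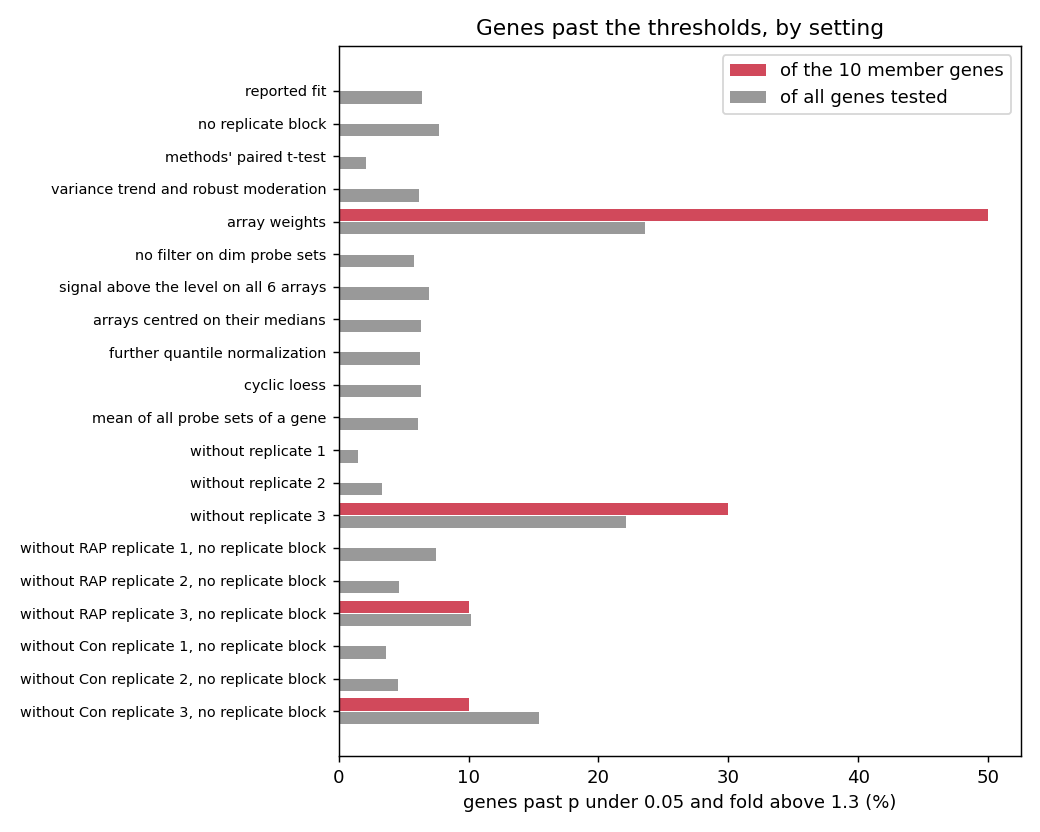
Share of the 10 genes (red) and of all genes tested (grey) past an unadjusted p under 0.05 and a fold above 1.3, in percent, for the reported fit and each alternative. The 10 genes pass nowhere except with array weights (5 genes), without replicate 3 (3 genes), and without RAP replicate 3 or control replicate 3 and no block (1 gene each), settings in which between 10.2% and 23.6% of all genes pass.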

How the data were processed

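RNA from 6 rat left atria had been hybridized to Rat Gene 1.0 ST arrays, 1 per rat. The authors processed the scans in Partek (software version not given in the sources used here) by robust multiarray averaging (RMA), which leaves the deposited data as a log2 signal for each probe set, after background correction, quantile normalization and summary of the probes. They were used as deposited. The number of arrays limits the precision.

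Of 29214 probe sets, 15310 carry 1 symbol in the platform annotation, 323 several and 13581 none. Probe sets above a log2 signal of 5 on at least 1 array were kept (19907), giving 11237 genes, and where a gene had several the one of highest mean was used. All 10 genes described were kept and exceeded 5 on every array. The RAP arrays were set against the control arrays in limma 3.58.1 in R 4.3.3 with the pair as a block (2 residual and 2.76 prior degrees of freedom), called at an unadjusted p under 0.05 and a fold above 1.3, as in the study's methods, with Benjamini-Hochberg adjustment over all genes. The code was tested on simulated data. An exact permutation test of 3 against 3 arrays cannot give a two-sided p under 0.1. A sign test over the 3 pairs cannot give one under 0.25. Neither was used.

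The pairs come from the labels, which give each rat a pair number. Deviations from the group means correlated across probe sets at 0.22, -0.24 and -0.32 in pairs 1, 2 and 3. Of 228 listed genes (textbook lists), 203 were tested. The members and lists were chosen with earlier results of these data known. Named are the 10 genes, fixed partners, up to 4 called genes of a vascular or hypoxia list, and the 3 genes nearest in pattern to the 2 members of widest range. Other genes in the text (among them Hif1a, Epas1, Prox1, Lyve1, Nos3, Plcg1, Akt1, Esm1, Apln, Dll4, Pecam1, Nppa and Myl7) were added for their role after their values were seen. The alternatives were the methods' paired t-test, no replicate block, a variance trend, array weights, other filters, scalings and probe set rules, and leaving out pairs or single arrays.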

Additional observations from a re-analysis of the deposited data

How the results depend on the processing

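The count of 0 of the 10 genes past the thresholds held in 15 of 19 alternatives, and moved to 5 with array weights (Vegfb, Kdr, Flt1, Flt4 and Angpt2), which gave pair 1 a weight of 4.91 and pairs 2 and 3 weights of 0.623 and 0.327. Leaving out pairs or single arrays gave between 0 and 3 of the 10 genes. Over all genes 718 passed, 870 with no replicate block, 234 by the methods' paired t-test, 2650 with array weights, and between 164 and 2488 when a pair was left out. With a single array left out and no block, 408 passed without control replicate 1, 1144 without RAP replicate 3, 1731 without control replicate 3, and 513 to 843 without each of the others. The paired t-test gave 0 in each list of partners, signaling, VEGF and Notch responses and hypoxia. With no replicate block 0 of the 10 genes passed and no call among them changed, nor did any under the other scalings, filters and probe set rules. The median change of the 10 genes, 0.09, lay between -0.05 and 0.20 when a pair or an array was left out.

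With array weights the change was 0.43 in Vegfb, 0.54 in Kdr, 0.43 in Flt1, -0.82 in Flt4 and 0.62 in Angpt2, and its direction turned in Vegfa (-0.02). When a pair or an array was left out, the change lay between -0.11 and 0.24 in Vegfa, -0.09 and 0.65 in Vegfb, -0.67 and 0.04 in Pgf, -0.20 and 0.45 in Angpt1, -0.32 and 0.37 in Angpt2 (-0.10 without RAP replicate 1, -0.15 without control replicate 1), and -0.12 and 0.24 in Tek (-0.01 to 0.16 over the pairs). Over all 19 alternatives, array weights included, Vegfc (-0.44 to -0.21), Kdr (0.06 to 0.54), Flt1 (0.13 to 0.46) and Flt4 (-0.82 to -0.22) kept their sign. The cause of these shifts was not tested. Fits that leave out an array are unpaired, and with 2 pairs or 5 arrays the spread rests on fewer samples.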
